A study of Mus musculus with 10 samples.

Results

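The 6 receptor genes of the interleukin-1 family that stand side by side on mouse chromosome 1 (Il1r2, Il1r1, Il1rl2, Il1rl1, Il18r1 and Il18rap) were described by the open chromatin around them in intestinal innate lymphoid cells. A peak of open chromatin was given to a gene when that gene's body was the nearest protein-coding gene body and lay within 50 kb, on build GRCm38. This rule, which used no measured value, gave 36 of the 36251 peaks tested: 4 at Il1r2, 14 at Il1r1, 6 at Il1rl2, 2 at Il1rl1, 6 at Il18r1 and 4 at Il18rap. The member farthest from its gene lay 35822 bp beyond Il1r2. Within 50 kb of the cluster, 5 further peaks were nearer to or inside another gene and were not members. The nearest of these to a member gene, chr1:40052110-40052753, lay 25800 bp from Map4k4 and 31939 bp from Il1r2, and its mean log2 value was 6.58 in RORgt-KO, 5.72 in RORgt-Tbet-KO, 6.61 in RORgt-RORa-KO and 6.79 in Control.

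ATAC-seq, which reads open DNA by the cuts of the Tn5 transposase, was done on sorted innate lymphoid cells (ILCs) of C57BL/6 mice, taken from the lamina propria of the small intestine. The RORgt-KO mice (n = 2 libraries) carried Id2creERT2+, loxP-flanked alleles of the RORgt gene and tdRFP+. The RORgt-Tbet-KO mice (n = 2) carried Tbx21f/f in addition, which also removes T-bet, and the RORgt-RORa-KO mice (n = 3) carried Roraf/f in addition, which also removes RORa. Control mice (n = 3) carried Id2creERT2+ and tdRFP+ with no floxed allele, and all 4 groups received tamoxifen in the diet before sorting. Cre was driven by Id2, a gene that all ILC subsets use, so deletion was not limited to 1 subset, and each library came from 1 mouse or a pool of a few. Neither the age of the mice nor the sort markers, batches or floxed exons are stated in the labels, so peaks at the targeted genes were not read as a check of deletion.

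The interleukin-1 family receptors are membrane chains that pass their signal through a shared intracellular TIR domain, the adaptor MyD88 and IRAK kinases to NF-kappaB. IL1R1 carries the IL-1 signal, IL1R2 is a decoy that binds IL-1 without signalling, IL1RL2 is the IL-36 receptor and ST2, encoded by Il1rl1, is the IL-33 receptor. IL-18 is bound by IL18R1 and needs the accessory chain encoded by Il18rap to signal. In gut tissue, IL-1 is known to act on ILC3, IL-33 on ILC2 and IL-18 on ILC1 and NK cells, and RORgt, T-bet and RORa are transcription factors of these lineages.

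All 6 genes are read on the plus strand and their bodies span 467 kb, from 40084692 to 40551707. The RefSeq (GRCm38.p6) windows used here gave 10 starts for them, called first or second by their order among these. The windows before these starts held bases of 5 deposited peaks. The bodies of Il1r2, Il1r1 and Il1rl1 begin before the first of these starts, at 40084692, 40222480 and 40404864. The peak at 40084543 covers the Il1r2 body start and was counted as inside the body. The 4 windows below hold the 250 bases before a start and are shown because they differ in whether a peak lay over them. Capitals mark the bases inside a deposited peak, except in the Il1rl1 window, which held no peak and where capitals mark AGGTCA, the core bound by ROR factors. Other windows also held no peak, and this one is the only window of the 10 with AGGTCA.
Il1r1 first start, chr1:40224830-40225079, plus strand, 192 bases in a peak that passed no test: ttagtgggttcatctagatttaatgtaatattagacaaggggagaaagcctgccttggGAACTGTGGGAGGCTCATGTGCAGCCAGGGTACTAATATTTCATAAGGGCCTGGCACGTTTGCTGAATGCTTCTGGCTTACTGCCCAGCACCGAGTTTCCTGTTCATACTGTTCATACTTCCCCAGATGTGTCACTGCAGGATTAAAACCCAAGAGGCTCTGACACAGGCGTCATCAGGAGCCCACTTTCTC
Il1rl2, chr1:40324339-40324588, plus strand, 86 bases in a peak that was higher in RORgt-RORa-KO: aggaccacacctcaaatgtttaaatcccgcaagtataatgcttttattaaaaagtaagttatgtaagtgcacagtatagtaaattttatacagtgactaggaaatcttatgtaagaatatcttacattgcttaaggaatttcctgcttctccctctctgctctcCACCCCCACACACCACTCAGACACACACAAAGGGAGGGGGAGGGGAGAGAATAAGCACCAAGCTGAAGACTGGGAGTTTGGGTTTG
Il1rl1 second start, chr1:40439379-40439628, plus strand, no peak: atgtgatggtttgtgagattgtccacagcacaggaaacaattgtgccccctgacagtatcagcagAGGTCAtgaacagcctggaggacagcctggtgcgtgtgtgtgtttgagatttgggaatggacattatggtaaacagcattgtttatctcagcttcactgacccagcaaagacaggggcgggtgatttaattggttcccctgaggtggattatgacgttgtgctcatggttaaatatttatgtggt
Il18rap, chr1:40515112-40515361, plus strand, all 250 bases in a peak that passed no test: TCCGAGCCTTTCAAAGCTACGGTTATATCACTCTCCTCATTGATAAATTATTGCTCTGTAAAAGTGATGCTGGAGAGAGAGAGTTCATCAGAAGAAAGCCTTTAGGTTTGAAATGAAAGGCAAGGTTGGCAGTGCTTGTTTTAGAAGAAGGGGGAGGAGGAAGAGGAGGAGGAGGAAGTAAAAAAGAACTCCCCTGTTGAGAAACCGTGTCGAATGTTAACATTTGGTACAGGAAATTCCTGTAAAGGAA

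Each motif was searched on its own on both strands. The letters AGGTCA stood in 1 of the 10 windows of the cluster, 185 bases before the second Il1rl1 start, and in 14.0% of the 32851 windows of the same length in the RefSeq table. The T-box core GGTGTGA stood in 0 of 10 windows and in 3.33% of all windows. The RUNX core TGTGGT stood in 2 of 10, at Il1rl2 and at the second Il1rl1 start, and in 14.0% of all windows. The GATA core GATAAG stood in 1 of 10, the window of the first Il1rl1 start, and in 6.55% of all windows. A match of letters is a description of these windows and not a site. Sequence of the peaks away from starts was not analysed here.

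Reads in peaks per library numbered between 2271585 and 5047436, and the 36 member peaks held between 1432 and 3684 reads per library with a median of 31.5 to 87.5 reads per peak. The values are log2 of scaled read counts, and each difference below is a knockout group minus Control on that scale, or the first-named group minus the second. All 5 ILC markers looked up (Id2, Il7r, Thy1, Il2rg and Gata3) had peaks, and Gata3 is also in the ILC2 list below. Their summed scaled reads were 2836 to 2998 in RORgt-KO, 3335 to 3437 in RORgt-Tbet-KO and 2756 to 3216 in RORgt-RORa-KO. Control had 2903 to 3385, with overlap in each group. Summed scaled reads at peaks of 10 of 11 ILC1 and NK markers were 3186 to 3442 in RORgt-KO, 3287 to 3411 in RORgt-Tbet-KO and 3563 to 4000 in RORgt-RORa-KO, all above the 2388 to 2452 in Control. Gzma had no peak in that list, which includes Tbx21, the gene floxed in RORgt-Tbet-KO. At peaks of 7 of 9 ILC2 markers, with none at Il13 and Il4, they were 2402 to 2612, 2544 to 2633 and 2302 to 2641 in the same 3 knockout groups, all below the 2965 to 3569 in Control. At peaks of 3 of 5 epithelial markers, with none at Vil1 and Krt20, they were 586 to 605 in RORgt-KO, 684 to 755 in RORgt-Tbet-KO and 627 to 651 in RORgt-RORa-KO, against 482 to 523 in Control. At peaks of 2 of 5 stromal and endothelial markers, with none at Col1a1, Col3a1 and Cdh5, they were 535 to 565, 674 to 693 and 570 to 750 in the same groups, against 403 to 489 in Control. At peaks of 3 of 6 myeloid markers, with none at Csf1r, Lyz2 and S100a8, they were 344 to 364, 310 to 334 and 333 to 395, against 246 to 304 in Control. At all 7 ILC3 markers, they were 5114 to 5498, 6244 to 6766 and 4591 to 5499, against 5408 to 6494 in Control, with overlap in each group. At 4 of 6 T cell markers, with none at Cd3g and Cd8a, they were 308 to 341, 370 to 453 and 449 to 483, against 323 to 366 in Control. Of 6 mast cell markers 1 had peaks, with none at Fcer1a, Ms4a2, Gata2, Mcpt1 and Mcpt2, and the sums were 273 to 297, 244 to 266 and 271 to 383, against 270 to 422 in Control. The part of these shifts in the results at the receptor genes was not tested. In such bulk libraries a different share of cells of a type and a different accessibility per cell cannot be told apart.

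Most receptor peaks that changed were more open in the knockouts. In RORgt-KO against Control, 7 of the 36 peaks were higher and 2 lower, or 25.0%, against 12.3% of all peaks tested (5.19% higher and 7.12% lower). In RORgt-Tbet-KO against Control, 13 were higher and 1 lower, or 38.9%, against 22.6% of all peaks (11.3% higher and 11.3% lower). In RORgt-RORa-KO against Control, 14 were higher and 3 lower, or 47.2%, against 31.2% of all peaks (15.1% higher and 16.1% lower). Calls are adjusted p under 0.05 in limma over all peaks, and the 3 comparisons share the same Control libraries. The median log2 difference of the 36 peaks was 0.38 in RORgt-KO, 0.44 in RORgt-Tbet-KO and 0.45 in RORgt-RORa-KO, beside 0.02, 0.01 and 0.02 over all peaks.

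The moderated F test over the 4 groups called 14 of the 36 peaks (38.9%), against 30.7% of all peaks. The lowest group mean was that of RORgt-KO at 5 of the 36 peaks, RORgt-Tbet-KO at 2, RORgt-RORa-KO at 6 and Control at 23. The highest was that of RORgt-KO at 2 peaks, RORgt-Tbet-KO at 15, RORgt-RORa-KO at 14 and Control at 5. These orders were counted for the 36 peaks only. How often Control is the lowest or highest group over all peaks is not known, so the orders are a description. The counts of calls rested on few libraries. The RORgt-KO count was 1 (2.78%, beside 4.72% of all peaks) without RORgt-KO library 1, so that it no longer exceeded the share of all peaks, and 3 (8.33%, beside 5.77%) without library 2. The RORgt-Tbet-KO count was 5 (13.9%) without either of its libraries, beside 9.27% of all peaks without library 1 and 9.82% without library 2, and 9 (25.0%, beside 16.5%) without Control 2. The RORgt-RORa-KO count was 11 (30.6%, beside 27.6%) without RORgt-RORa-KO library 3. Control 3 was the control nearest to the knockout means at 13 of the 21 peaks called in any of the 3 comparisons, and without it the counts were 11, 14 and 18, beside 14.0%, 24.6% and 32.7% of all peaks.

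**Figure D1:**
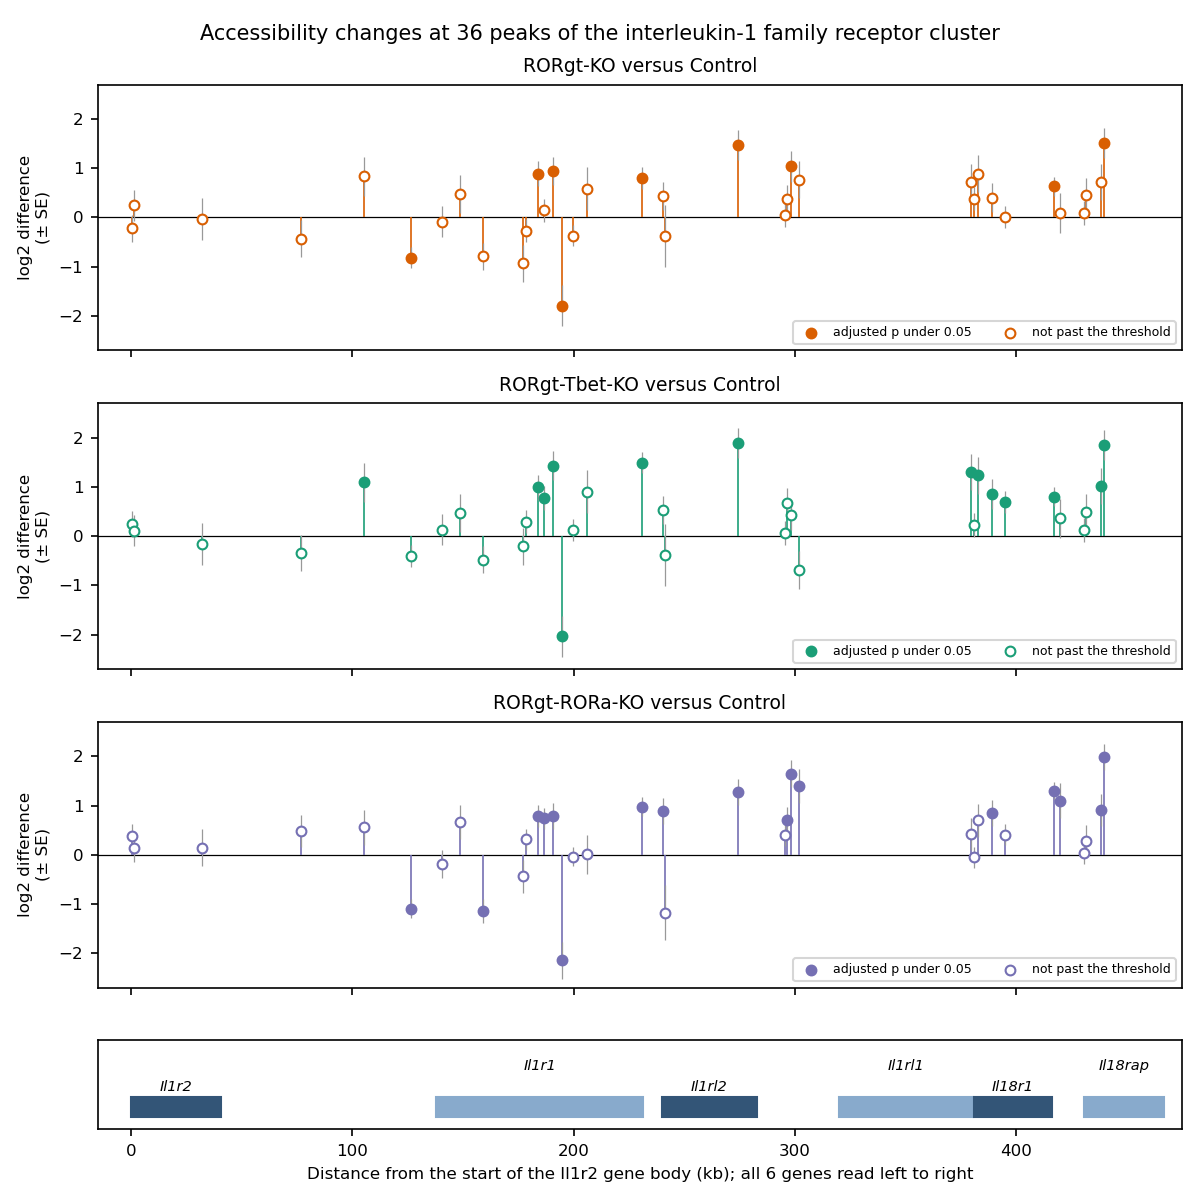
The log2 difference from Control (± SE) at each of the 36 peaks is drawn against distance in kb from the start of the Il1r2 gene body, in 1 panel for each knockout group, with filled points for adjusted p under 0.05 and the 6 gene bodies as boxes below. Filled points stand on both sides of 0 at Il1r1 and above it at Il1rl2, Il1rl1, Il18r1 and Il18rap, and Il1r2 has none.

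Calls were also counted by where the peak lay relative to the gene, with no test between these classes. Over all peaks, wherever they lay, 12.3% were called in RORgt-KO, 22.6% in RORgt-Tbet-KO and 31.2% in RORgt-RORa-KO, and shares by place were not counted. Of the 5 peaks over a start window, 0 were called in RORgt-KO, 0 in RORgt-Tbet-KO and 1 in RORgt-RORa-KO by limma, with the same counts by voom. So few peaks cannot show whether starts changed less often than all peaks. An unadjusted p under 0.05 in limma was reached by 0, 0 and 1 of the 5 start peaks. Of the 22 other peaks inside a gene body, 5 were higher and 1 lower with RORgt-KO, 11 higher and 1 lower with RORgt-Tbet-KO and 8 higher and 2 lower with RORgt-RORa-KO. Of the 9 peaks outside a body, 2 were higher and 1 lower in RORgt-KO, 2 were higher in RORgt-Tbet-KO, and 5 were higher and 1 lower in RORgt-RORa-KO. The peaks that fell were among the most open of the cluster in Control per length. The peaks at 40279247 and 40210639 ranked 1 and 2 of the 36, with 264 and 237 scaled reads per kb in Control, and the peak at 40243445 ranked 5 with 203. The 4th peak of Il18rap, at 40524012, ranked 36 with 39.6 scaled reads per kb in Control and had the smallest F-test p of the 36 (adjusted p = 5.16e-06). Levels and differences here share the Control libraries, so this order is a description.

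Summed over their peaks, 4 of the 6 genes were higher in the knockouts. The IL-18 receptor chains, the IL-36 receptor and ST2 had more scaled reads in every knockout library than in any Control library. Sums were made for the 6 genes only, so how many of all genes part in this way is not known. The sum of ST2 rests on 2 peaks away from the Il1rl1 starts, which went opposite ways in RORgt-Tbet-KO (-0.69 and 1.31). For Il18r1 the sums were 549.5 and 504.0 in the RORgt-KO libraries, 642.8 and 634.4 in the RORgt-Tbet-KO libraries, and 656.2, 580.1 and 784.6 in the RORgt-RORa-KO libraries, against 372.9, 358.4 and 457.2 in Control. For Il1r1 they were 1046.5 and 1047.3 in the RORgt-KO libraries, 1373.1 and 1448.9 in the RORgt-Tbet-KO libraries, and 1080.2, 948.6 and 1384.5 in the RORgt-RORa-KO libraries, against 1124.0, 1098.6 and 1130.1 in Control. Thus the RORgt-KO libraries were just below Control at Il1r1, the RORgt-Tbet-KO libraries above it, and the RORgt-RORa-KO libraries on both sides.

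The ratio of group means to Control was 1.33 in RORgt-KO, 1.61 in RORgt-Tbet-KO and 1.70 in RORgt-RORa-KO at Il18r1, and 1.45, 1.65 and 1.62 in the same order at Il18rap. At Il1rl2 it was 1.45, 1.47 and 1.80, and at Il1rl1, with 2 peaks, 1.69, 1.52 and 1.92. At Il1r1 it was 0.94, 1.26 and 1.02. At Il1r2, the decoy receptor, it was 0.95, 1.02 and 1.25, and the 3 RORgt-RORa-KO libraries (221.1, 208.1 and 224.2) were above the 3 Control libraries (161.9, 172.1 and 188.6). These sums weigh wide and open peaks most and were not tested.

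**Figure D2:**
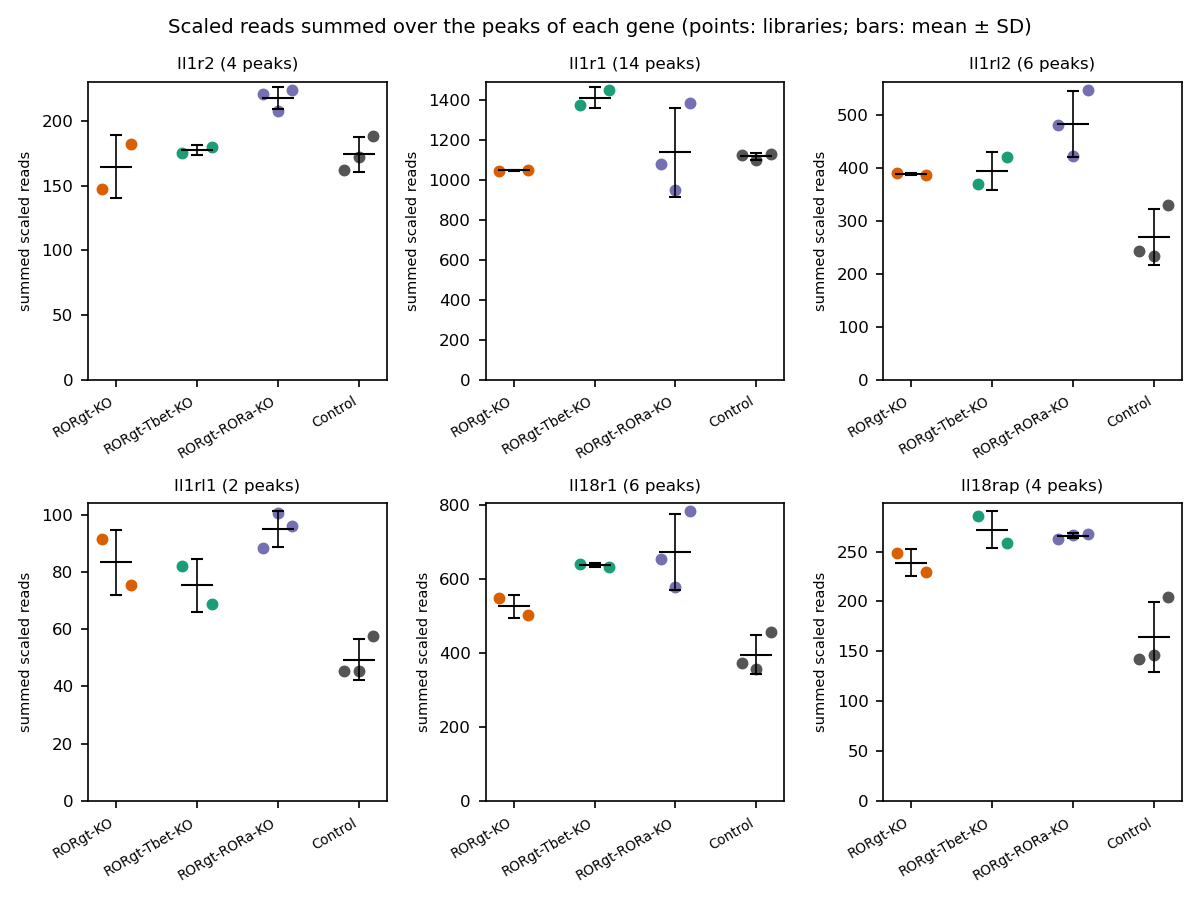
Scaled reads summed over the peaks of each gene are shown per library (points) with the group mean ± SD (bars), 1 panel per gene, for RORgt-KO and RORgt-Tbet-KO (n = 2 each), RORgt-RORa-KO and Control (n = 3 each). At Il1rl2, Il1rl1, Il18r1 and Il18rap every knockout library lies above every Control library, whereas at Il1r1 the RORgt-KO points lie below Control.

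At Il1r1, the signalling receptor of IL-1, peaks moved in both directions within 1 gene. Of its 14 peaks, 3 were higher and 2 lower with RORgt-KO, 5 higher and 1 lower with RORgt-Tbet-KO and 4 higher and 3 lower with RORgt-RORa-KO. The 3 peaks higher in RORgt-KO lay after the second start of the gene, and the 2 lower lay before the gene and in the stretch between those 3. The peak at the 3′ end of the body, chr1:40315272-40315881, had 7.07 and 7.21 in the RORgt-KO libraries, 7.96 and 7.69 in the RORgt-Tbet-KO libraries, and 7.36, 6.97 and 7.59 in the RORgt-RORa-KO libraries, against 6.30, 6.46 and 6.23 in Control. All 7 knockout libraries were above all 3 Control libraries. The difference was 0.80 (SE 0.22, adjusted p = 0.0132, limma) in RORgt-KO and 0.97 (SE 0.20, adjusted p = 0.000303, limma) in RORgt-RORa-KO, beside 1.49, or 2.81-fold, in RORgt-Tbet-KO. The RORgt-KO call was lost without either of its libraries, at 0.87 (adjusted p = 0.0781, limma) without library 1 and 0.73 (adjusted p = 0.145, limma) without library 2.

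An intragenic peak of Il1r1, chr1:40279247-40279575, showed the largest fall of the cluster. It had 4.09 and 5.17 in the RORgt-KO libraries, 3.82 and 4.95 in the RORgt-Tbet-KO libraries, and 4.18, 3.99 and 4.65 in the RORgt-RORa-KO libraries, against 6.48, 6.18 and 6.61 in Control. Every knockout library was at least 1 log2 unit below the lowest Control library, although the libraries within the RORgt-KO and RORgt-Tbet-KO pairs were themselves about that far apart. The difference was -1.79 (SE 0.41, adjusted p = 0.00382, limma) in RORgt-KO, -2.04 (adjusted p = 0.000674) in RORgt-Tbet-KO and -2.15 (SE 0.37, adjusted p = 4.83e-05) in RORgt-RORa-KO. In folds, it was 3.46, 4.10 and 4.43 times lower in these groups. The calls were lost without RORgt-KO library 1 (-1.25, adjusted p = 0.165, limma) and without RORgt-Tbet-KO library 1 (-1.47, adjusted p = 0.063).

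A pair of further Il1r1 peaks fell in RORgt-RORa-KO. The peak 10973 bp before the gene, chr1:40210639-40211507, had 6.93 and 6.80 in the RORgt-KO libraries, 7.23 and 7.31 in the RORgt-Tbet-KO libraries, and 6.59, 6.21 and 6.95 in the RORgt-RORa-KO libraries, against 7.61, 7.62 and 7.81 in Control. Every knockout library was again below every Control library. The difference was -0.81 (SE 0.22, adjusted p = 0.0128, limma) in RORgt-KO and -1.09 (SE 0.20, adjusted p = 8.47e-05) in RORgt-RORa-KO, and -0.41 in RORgt-Tbet-KO did not pass (adjusted p = 0.189). The RORgt-KO call was lost without library 1 (-0.88, adjusted p = 0.0784, limma) or library 2 (-0.75, adjusted p = 0.137). The peak chr1:40243445-40244031, inside the body, had 5.87 and 6.24 in the RORgt-KO libraries, 6.37 and 6.36 in the RORgt-Tbet-KO libraries, and 5.88, 5.40 and 5.82 in the RORgt-RORa-KO libraries, against 7.33, 6.39 and 6.81 in Control. Control 2 stood just above the RORgt-Tbet-KO libraries, and RORgt-RORa-KO had the lowest mean, although RORgt-KO library 1 lay among its libraries. The difference passed in RORgt-RORa-KO at -1.14 (SE 0.25, adjusted p = 0.000715, limma) and was -0.79 in RORgt-KO (adjusted p = 0.0601) and -0.48 in RORgt-Tbet-KO (adjusted p = 0.227).

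Downstream of the second Il1r1 start, at which no peak lay, 3 neighbouring peaks were higher. The closest, chr1:40268508-40268929, began 1922 bp after that start. It had 6.62 and 6.35 in the RORgt-KO libraries, 6.57 and 6.62 in the RORgt-Tbet-KO libraries, and 6.13, 6.40 and 6.62 in the RORgt-RORa-KO libraries, against 5.58, 5.58 and 5.63 in Control. The Control libraries were close together and below all knockout libraries. The difference was 0.89 (SE 0.25, adjusted p = 0.0183, limma) in RORgt-KO, 0.99 (adjusted p = 0.00505) in RORgt-Tbet-KO and 0.79 (SE 0.23, adjusted p = 0.00829) in RORgt-RORa-KO. Without RORgt-KO library 1 or 2 it was 0.75 (adjusted p = 0.226, limma) or 1.03 (adjusted p = 0.0639), and without RORgt-Tbet-KO library 1 or 2 it was 1.02 (adjusted p = 0.0635) or 0.97 (adjusted p = 0.0763).

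The peak chr1:40275104-40275579 had 6.69 and 7.03 in the RORgt-KO libraries, 7.18 and 7.52 in the RORgt-Tbet-KO libraries, and 6.01, 6.60 and 7.49 in the RORgt-RORa-KO libraries, against 5.93, 5.80 and 6.03 in Control. RORgt-RORa-KO library 1 lay within the Control range and library 3 near the top of all libraries. The difference was 0.94 (SE 0.29, adjusted p = 0.0312, limma) in RORgt-KO, 1.43 (adjusted p = 0.000706) in RORgt-Tbet-KO and 0.78 (SE 0.26, adjusted p = 0.0222) in RORgt-RORa-KO. The RORgt-RORa-KO value was 0.38 without its library 3 (adjusted p = 0.257, limma) and 0.72 without Control 2 (adjusted p = 0.0715). The RORgt-KO call was lost without either RORgt-KO library, at 1.11 (adjusted p = 0.0981, limma) and 0.77 (adjusted p = 0.283), and without Control 1 (0.94, adjusted p = 0.0661) or Control 2 (0.88, adjusted p = 0.0878). Between these peaks, the peak at 40270985 was higher in RORgt-Tbet-KO by 0.77 (adjusted p = 0.0192, limma) and in RORgt-RORa-KO by 0.74 (adjusted p = 0.00791), and differed by 0.14 in RORgt-KO. Among the other Il1r1 peaks, the one 32078 bp before the gene had a difference of 1.09 with RORgt-Tbet-KO (SE 0.40, adjusted p = 0.0461, limma), and the rest passed no test against Control. Of these weaker calls, that at 40270985 in RORgt-RORa-KO was lost without Control 1 (0.58, adjusted p = 0.062, limma). The RORgt-Tbet-KO calls at 40270985 and 32078 bp before the gene were lost without RORgt-Tbet-KO library 1, library 2 or Control 1, and the second also without Control 2, at 0.61 to 0.92 and 0.85 to 1.33 with 1 library left out.

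At Il1r2, the decoy receptor of IL-1, 0 of 4 peaks were called in any of the 3 comparisons with Control by limma, by limma voom or with library weights. An unadjusted p under 0.05 was reached by 0 of 4 in limma and by 1 of 4 in voom, in RORgt-RORa-KO. With 4 peaks, these counts cannot show whether Il1r2 changed less often than all peaks, of which 12.3%, 22.6% and 31.2% were called. The peak with the smallest F-test p, chr1:40161052-40161735, lay 35822 bp past the gene. It had 4.29 and 5.29 in the RORgt-KO libraries, 5.04 and 4.70 in the RORgt-Tbet-KO libraries, and 5.94, 5.82 and 5.33 in the RORgt-RORa-KO libraries, against 5.33, 4.89 and 5.43 in Control. Every knockout group overlapped with Control, while the RORgt-RORa-KO libraries lay above both other knockout groups. The difference from Control was -0.43 in RORgt-KO (adjusted p = 0.536, limma), -0.35 in RORgt-Tbet-KO (adjusted p = 0.543) and 0.48 in RORgt-RORa-KO (adjusted p = 0.289). The other 3 Il1r2 peaks differed from Control by between -0.22 and 0.38 in the 3 comparisons.

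At Il1rl2, which encodes the IL-36 receptor, every peak that passed was higher: 2 of 6 in RORgt-KO, 1 in RORgt-Tbet-KO and 4 in RORgt-RORa-KO. A peak inside the body, chr1:40358684-40359225, changed in all 3 groups. It had 6.39 and 6.04 in the RORgt-KO libraries, 6.65 and 6.60 in the RORgt-Tbet-KO libraries, and 6.13, 5.86 and 6.07 in the RORgt-RORa-KO libraries, against 4.28, 4.69 and 5.26 in Control. All knockout libraries were above Control 3, the highest of the controls. The difference was 1.47 (SE 0.30, adjusted p = 0.00142, limma) in RORgt-KO, 1.88 (adjusted p = 5.23e-05, 3.69-fold) in RORgt-Tbet-KO and 1.28 (SE 0.27, adjusted p = 0.000595) in RORgt-RORa-KO. The RORgt-KO value was 1.30 without RORgt-KO library 1 (adjusted p = 0.0593, limma).

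Past the 3′ end of Il1rl2 lay 3 peaks in a row, each with its highest group mean in RORgt-RORa-KO. The last of them, chr1:40382688-40383161, 15133 bp from the gene, had 6.68 and 6.46 in the RORgt-KO libraries, 5.72 and 6.19 in the RORgt-Tbet-KO libraries, and 7.14, 7.07 and 7.32 in the RORgt-RORa-KO libraries, against 4.96, 5.23 and 6.41 in Control. The RORgt-RORa-KO libraries were the highest, and Control 3 lay above both RORgt-Tbet-KO libraries. The difference from Control was 1.04 (SE 0.31, adjusted p = 0.0248, limma) in RORgt-KO, 0.42 (adjusted p = 0.349) in RORgt-Tbet-KO and 1.65 (SE 0.28, adjusted p = 3.57e-05, 3.13-fold) in RORgt-RORa-KO. The RORgt-KO call was lost without RORgt-KO library 1 (0.93, adjusted p = 0.228, limma) or 2 (1.15, adjusted p = 0.101) and without Control 1 (0.75, adjusted p = 0.141) or Control 2 (0.89, adjusted p = 0.0963). The middle of the 3 peaks, at 40381001, was higher in RORgt-RORa-KO by 0.71 (adjusted p = 0.0383, limma), and the first, at 40380220, passed no test. The call at 40381001 was lost without RORgt-RORa-KO library 1 or 3 or Control 1 or 2, at 0.57 to 0.89 with 1 library left out.

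Il1rl1, which encodes the IL-33 receptor ST2, had 2 peaks, and neither lay at its starts. The peak chr1:40386232-40386603 lay between Il1rl2 and Il1rl1 at nearly the same distance from both bodies, 18677 bp from Il1rl2 and 18261 bp from Il1rl1. It had 5.84 and 4.82 in the RORgt-KO libraries, 3.91 and 3.83 in the RORgt-Tbet-KO libraries, and 5.81, 6.10 and 5.95 in the RORgt-RORa-KO libraries, against 4.83, 4.37 and 4.48 in Control. The RORgt-RORa-KO libraries lay above Control and the RORgt-Tbet-KO libraries below it, while RORgt-KO library 1 resembled RORgt-RORa-KO and library 2 resembled Control. Against Control the difference was 1.39 (SE 0.34, adjusted p = 0.00234, limma) in RORgt-RORa-KO, -0.69 (adjusted p = 0.203) in RORgt-Tbet-KO and 0.77 (adjusted p = 0.215) in RORgt-KO.

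The other Il1rl1 peak, chr1:40463992-40464277, stood at the end of the gene, 1275 bp before Il18r1. It had 5.09 and 5.56 in the RORgt-KO libraries, 6.06 and 5.77 in the RORgt-Tbet-KO libraries, and 5.01, 4.99 and 5.09 in the RORgt-RORa-KO libraries, against 4.07, 4.62 and 5.14 in Control. Both RORgt-Tbet-KO libraries were above all controls, and Control 3 was level with RORgt-RORa-KO. The difference passed in RORgt-Tbet-KO at 1.31 (SE 0.37, adjusted p = 0.0109, limma), and was 0.72 in RORgt-KO (adjusted p = 0.234) and 0.42 in RORgt-RORa-KO. Without RORgt-Tbet-KO library 1 it was 1.16 (adjusted p = 0.161, limma), and without library 2 it was 1.45 (adjusted p = 0.0653).

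At Il18r1, which encodes the chain that binds IL-18, the peak just past the gene rose in every knockout group. In all, 1 of 6 peaks was higher in RORgt-KO, 4 in RORgt-Tbet-KO and 3 in RORgt-RORa-KO, and 0 were lower. The peak chr1:40501566-40502412, 712 bp past the gene, had 7.53 and 7.34 in the RORgt-KO libraries, 7.56 and 7.65 in the RORgt-Tbet-KO libraries, and 8.02, 7.95 and 8.34 in the RORgt-RORa-KO libraries, against 6.82, 6.71 and 6.89 in Control. The groups formed 3 steps, with RORgt-RORa-KO above the other knockouts and these above Control, and no library crossed a step. The difference was 0.63 (SE 0.20, adjusted p = 0.0313, limma) in RORgt-KO, 0.80 (adjusted p = 0.0038) in RORgt-Tbet-KO and 1.30 (SE 0.18, adjusted p = 1.54e-06, 2.46-fold) in RORgt-RORa-KO. RORgt-RORa-KO against RORgt-KO was 0.67 and did not pass (adjusted p = 0.092, limma).

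The RORgt-KO call at that Il18r1 peak was lost without RORgt-KO library 1 (0.53, adjusted p = 0.285, limma) or 2 (0.73, adjusted p = 0.0996), and without Control 1 (0.64, adjusted p = 0.0676) or Control 2 (0.58, adjusted p = 0.0869). The RORgt-Tbet-KO call was lost without RORgt-Tbet-KO library 2 (0.75, adjusted p = 0.0736, limma). Inside Il18r1, the peak chr1:40467288-40467663 had 6.01 and 6.41 in the RORgt-KO libraries, 6.63 and 6.47 in the RORgt-Tbet-KO libraries, and 6.07, 5.63 and 6.35 in the RORgt-RORa-KO libraries, against 5.18, 4.37 and 6.41 in Control. Control 3 stood more than 1 log2 unit above the other controls, within the range of the knockouts. The difference passed in RORgt-Tbet-KO at 1.23 (SE 0.38, adjusted p = 0.0179, limma), and without Control 2 it was 0.76 (adjusted p = 0.132). Without RORgt-Tbet-KO library 1 it was 1.15 (adjusted p = 0.136, limma), and without library 2 it was 1.31 (adjusted p = 0.0852). The 2 next peaks of the body, at 40473728 and 40479481, were higher in RORgt-Tbet-KO by 0.85 (adjusted p = 0.037, limma) and 0.69 (adjusted p = 0.0291), and the peak at 40473728 also in RORgt-RORa-KO by 0.86 (adjusted p = 0.0137). The peak 3800 bp past the gene was higher in RORgt-RORa-KO by 1.09 (adjusted p = 0.0194, limma). Its call was lost without RORgt-RORa-KO library 1 or 3 or Control 1 (0.88 to 1.22 with 1 library left out), and that at 40473728 without RORgt-RORa-KO library 3 (0.63, adjusted p = 0.106, limma). In RORgt-Tbet-KO the call at 40473728 was lost without any 1 of the 5 libraries (0.81 to 0.91), and that at 40479481 without RORgt-Tbet-KO library 1 or 2 or Control 2 (0.55 to 0.79).

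At Il18rap, the accessory chain of the IL-18 receptor, 1 of 4 peaks was higher in RORgt-KO, 2 in RORgt-Tbet-KO and 2 in RORgt-RORa-KO, and 0 were lower. The strongest, chr1:40524012-40524659, lies inside the body. It had 6.14 and 6.11 in the RORgt-KO libraries, 6.40 and 6.53 in the RORgt-Tbet-KO libraries, and 6.32, 6.84 and 6.65 in the RORgt-RORa-KO libraries, against 4.37, 4.28 and 5.20 in Control. Every knockout library was above every control, with Control 3 the nearest to them. The difference was 1.51 (SE 0.30, adjusted p = 0.00103, limma, 2.85-fold) in RORgt-KO, 1.85 (adjusted p = 5.95e-05, 3.60-fold) in RORgt-Tbet-KO and 1.99 (SE 0.27, adjusted p = 1.71e-06, 3.96-fold) in RORgt-RORa-KO. These 3 calls held when any 1 library was left out. The neighbouring peak at 40522651 was higher in RORgt-Tbet-KO by 1.01 (adjusted p = 0.0451, limma) and in RORgt-RORa-KO by 0.90 (adjusted p = 0.0345). Both calls were lost without Control 1 or 2, the first also without either RORgt-Tbet-KO library and the second without RORgt-RORa-KO library 1 or 3, at 0.68 to 1.41 and 0.57 to 1.30 with 1 library left out.

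**Figure D3:**
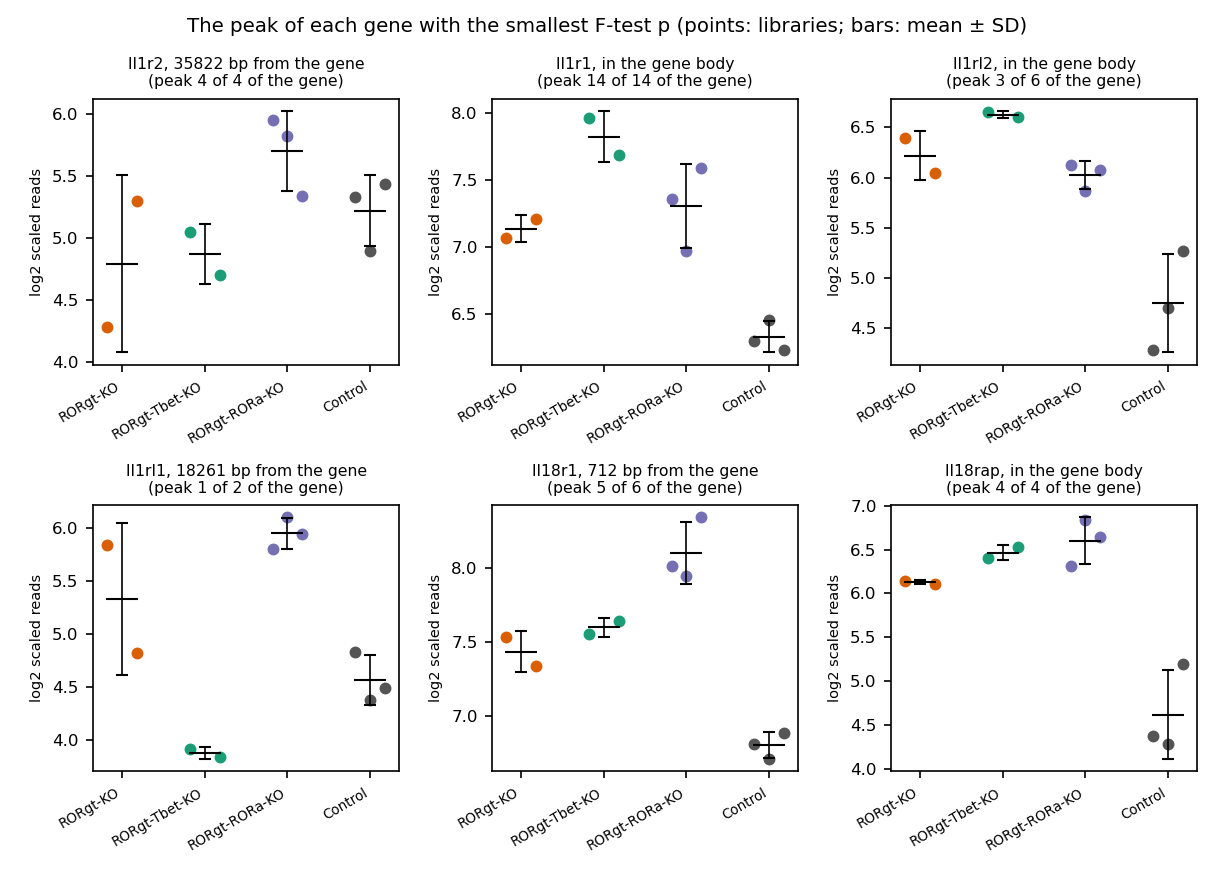
The deposited log2 scaled reads of the peak with the smallest F-test p of each gene are shown per library (points) with mean ± SD (bars), for RORgt-KO and RORgt-Tbet-KO (n = 2 each), RORgt-RORa-KO and Control (n = 3 each). Control is lowest at the peaks of Il1r1, Il1rl2, Il18r1 and Il18rap, RORgt-Tbet-KO is lowest at the Il1rl1 peak (3.91 and 3.83), and each knockout group overlaps with Control at Il1r2.

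Of the 5 peaks over start windows, that of Il1rl2 passed in 1 comparison with Control, that of RORgt-RORa-KO, and the others passed in none. At Il18rap, the peak chr1:40514859-40515535, which covers the whole window printed above, had 6.35 and 6.38 in the RORgt-KO libraries, 6.58 and 6.24 in the RORgt-Tbet-KO libraries, and 6.51, 6.18 and 6.25 in the RORgt-RORa-KO libraries, against 6.18, 6.37 and 6.29 in Control. The groups overlapped, and the F test gave adjusted p = 0.968 (limma). At Il18r1, chr1:40465513-40465984 had 6.55 and 6.67 in the RORgt-KO libraries, 6.58 and 6.33 in the RORgt-Tbet-KO libraries, and 6.24, 6.14 and 6.17 in the RORgt-RORa-KO libraries, against 6.07, 6.33 and 6.29 in Control. The RORgt-KO libraries were above the controls there and the RORgt-RORa-KO libraries among them, and the differences of 0.38, 0.23 and -0.05 did not pass. At Il1r1, chr1:40224888-40225260 had 5.61 and 5.74 in the RORgt-KO libraries, 5.82 and 5.95 in the RORgt-Tbet-KO libraries, and 5.77, 4.91 and 6.01 in the RORgt-RORa-KO libraries, against 5.54, 5.76 and 5.96 in Control. RORgt-RORa-KO library 2 was the lowest, and every knockout group overlapped with Control.

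At Il1r2, chr1:40085602-40086052 had 5.90 and 5.65 in the RORgt-KO libraries, 5.47 and 5.81 in the RORgt-Tbet-KO libraries, and 5.53, 5.46 and 5.97 in the RORgt-RORa-KO libraries, against 5.07, 5.83 and 5.68 in Control, and the groups overlapped. The start peak of Il1rl2, chr1:40324503-40325304, was the exception. It had 5.64 and 6.35 in the RORgt-KO libraries, 6.04 and 6.15 in the RORgt-Tbet-KO libraries, and 6.29, 6.34 and 6.72 in the RORgt-RORa-KO libraries, against 5.83, 5.23 and 5.63 in Control. All 3 RORgt-RORa-KO libraries were above Control, at a difference of 0.89 (SE 0.26, adjusted p = 0.00848, limma), while 0.43 in RORgt-KO (adjusted p = 0.385) and 0.53 in RORgt-Tbet-KO (adjusted p = 0.188) did not pass. The call was narrowly lost without RORgt-RORa-KO library 3 (0.75, adjusted p = 0.0533, limma) or Control 2 (0.72, adjusted p = 0.0517). The F test over the 4 groups did not pass at this peak (adjusted p = 0.0519, limma).

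**Figure D4:**
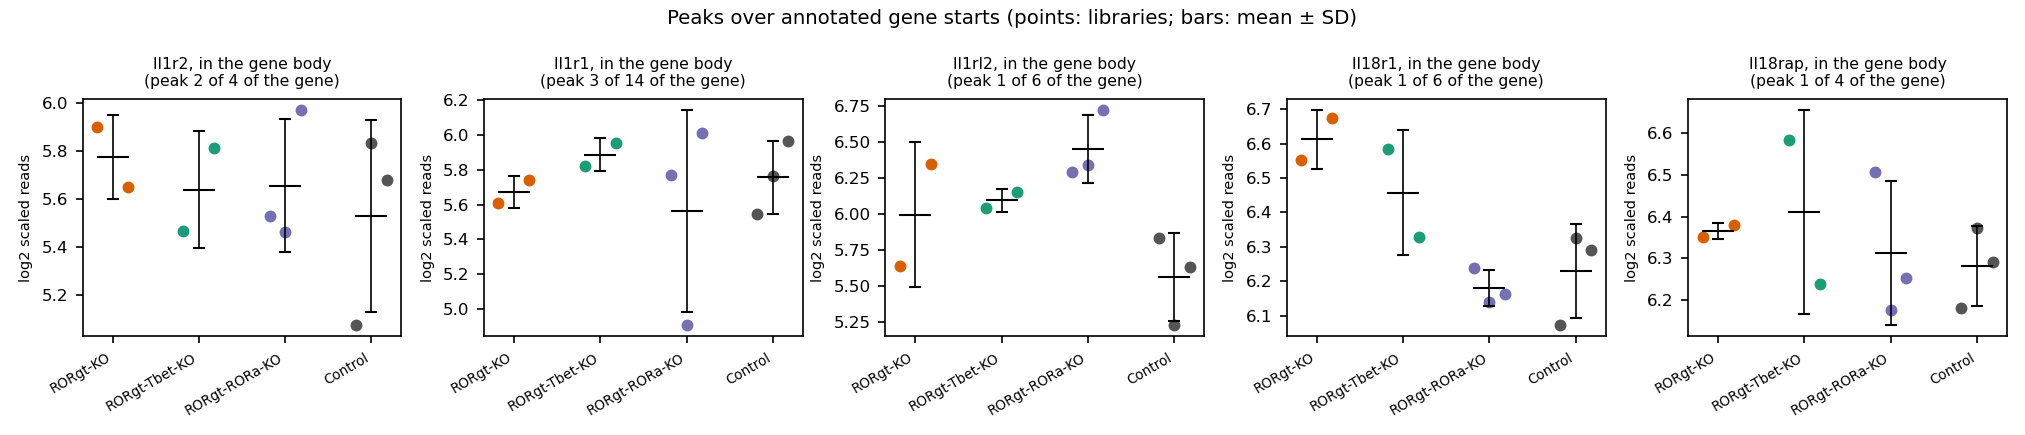
The deposited log2 scaled reads of the 5 peaks over start windows are shown per library (points) with mean ± SD (bars), for RORgt-KO and RORgt-Tbet-KO (n = 2 each), RORgt-RORa-KO and Control (n = 3 each). Each panel has its own scale. Only at Il1rl2 are the 3 RORgt-RORa-KO libraries (6.29, 6.34 and 6.72) all above the 3 Control libraries.

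Between the knockouts, few receptor peaks were called. In RORgt-RORa-KO against RORgt-Tbet-KO, 2 of 36 peaks were higher and 0 lower, or 5.56%, beside 7.54% of all peaks called (3.82% higher and 3.72% lower). Both lay between the Il1rl2 and Il1rl1 bodies, where the other 2 peaks did not pass. The peak at 40386232 was 2.08 higher (SE 0.38, adjusted p = 0.00053, limma, 4.23-fold) and the peak at 40382688 was 1.22 higher (SE 0.31, adjusted p = 0.0114, 2.33-fold). The first was called under all 15 alternatives run, at 1.85 to 2.15, and the second under 13 of 15, at 0.97 to 1.46 with adjusted p up to 0.236. For the Il1r1 peak at 40210639 the same comparison gave -0.69 and did not pass (adjusted p = 0.0528, limma), but it passed under 5 of 15 alternatives, at -0.87 to -0.50 over the 15.

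In RORgt-Tbet-KO against RORgt-KO, 0 of 36 peaks were called by limma, beside 1.14% of all peaks (0.179% higher and 0.965% lower). An unadjusted p under 0.05 was reached by 6 of the 36 peaks and by 4555 of all 36251. Limma voom on recovered reads called 0, and limma with library weights 4, beside 664 and 3148 of all 36251 peaks. At the peak 40386232 this difference was -1.46 (adjusted p = 0.091, limma), and it passed under 3 of 14 alternatives. In RORgt-RORa-KO against RORgt-KO, 0 of 36 were called by limma, beside 1.47% of all peaks (0.331% higher and 1.14% lower). An unadjusted p under 0.05 was reached by 6 of the 36 and by 4524 of all 36251 peaks. Voom called 1 and the fit with library weights 1, beside 417 and 1212 of all 36251 peaks.

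Taken as 1 list, peaks at other genes of the interleukin-1 pathway were called about as often as all peaks, but its classes differed. Of 36 ligands, receptor chains, signalling proteins, inhibitors and targets, 27 had peaks, 117 in all, of which 3 were higher and 10 lower with RORgt-KO, 21 higher and 7 lower with RORgt-Tbet-KO and 17 higher and 16 lower with RORgt-RORa-KO. In all, 11.1% were called in RORgt-KO, 23.9% in RORgt-Tbet-KO and 28.2% in RORgt-RORa-KO, beside 12.3%, 22.6% and 31.2% of all peaks. Their median difference was 0.05, 0.17 and 0.01 in these groups. Il1b, Il18, Il36a, Il36b, Il36g, Il36rn, Il18bp, Il1rapl1 and Il1rapl2 had no peak. The 7 peaks of ligands and antagonists gave 1 higher and 3 lower in RORgt-KO, and 2 higher and 3 lower in each of the other groups. That is 57.1%, 71.4% and 71.4%, all at Il1a or Il1rn. Among these, a peak 5650 bp from Il1a, which encodes IL-1 alpha, was higher by 1.45 in RORgt-KO (adjusted p = 0.00107, limma), 2.36 in RORgt-Tbet-KO (adjusted p = 1.4e-06) and 2.48 in RORgt-RORa-KO (adjusted p = 2.92e-08). A peak 1140 bp from Il1rn, which encodes the IL-1 receptor antagonist, was lower, with differences of -2.21, -2.19 and -2.15 in the same groups and adjusted p = 0.000916, 0.000564 and 9.76e-05 (limma).

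Of the 2 peaks at other receptor chains, the one at Il1rap, the chain shared by the IL-1, IL-33 and IL-36 receptors, was lower, at -0.52 in RORgt-Tbet-KO (adjusted p = 0.0271, limma) and -0.47 in RORgt-RORa-KO (adjusted p = 0.0192). The one at Sigirr, an inhibitory receptor, was higher by 1.10 in RORgt-Tbet-KO (adjusted p = 0.000602, limma). Il1rap and Sigirr were named after their values were seen. The 75 peaks of 17 signalling genes gave 1 higher and 3 lower with RORgt-KO, 13 higher and 1 lower with RORgt-Tbet-KO and 11 higher and 8 lower with RORgt-RORa-KO. That is 5.33%, 18.7% and 25.3%, beside 12.3%, 22.6% and 31.2% of all peaks. A peak in Irak2, a kinase of the receptor complex, was higher by 1.37 in RORgt-Tbet-KO (adjusted p = 9.37e-05, limma), and a peak in Ikbkb, a kinase that releases NF-kappaB, by 1.32 in RORgt-RORa-KO (adjusted p = 1.92e-05). A peak in Tab2, an adaptor of the TAK1 kinase, was lower, at -1.90 in RORgt-RORa-KO (adjusted p = 7.37e-07, limma). The 33 peaks of inhibitors and targets gave 1 higher and 4 lower, 5 higher and 2 lower, and 4 higher and 4 lower in the 3 groups, or 15.2%, 21.2% and 24.2%. A peak 44358 bp from Nfkbiz, an NF-kappaB cofactor induced by IL-1, was lower, at -3.37 in RORgt-Tbet-KO (adjusted p = 5.46e-05, limma).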

How the data were processed

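The submitters' processing notes name Trim Galore 0.62, Bowtie2 2.3.5.1, SAMtools, MACS2 and the build GRCm38. The deposited values are log2 of scaled read counts per peak in 1 table of 36262 peaks. How each library's scale was set is not stated in the labels. Raised to the power of 2, values of non-empty peaks were whole multiples of 1 step per library within a tolerance of 0.01, which gave back the reads and the depth.

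The 11 peaks on Y were left out. Limma 3.58.1 in R 4.3.3 was fitted with a mean-variance trend to the deposited log2 values of 36251 peaks in 10 libraries and 4 groups, with 6 residual and 22.5 prior degrees of freedom, and p-values were Benjamini-Hochberg adjusted over all peaks with a threshold of 0.05. The script was tested on simulated data. Genes and starts came from RefSeq. Labels call the libraries biological replicates of separate or pooled mice, and p-values measure the spread between them. Groups of 2 or 3 limit the precision.

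Values in every library are given for the peak of each gene with the smallest F-test p, the peaks at or nearest to annotated starts, and, of 15 called peaks with an absolute log2 difference of 1 or more and no overlap with Control, the 12 with the smallest p. The members and lists were chosen with earlier results of these data known. Alternatives covered scaling, filter, pseudocount, trend, voom on recovered reads, library weights, the 2 groups alone, a replicate block, leaving out each library and a 5 kb limit. A marker list is not reported here.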

Additional observations from a re-analysis of the deposited data

How the results depend on the processing

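Of 57 differences from Control at the 19 peaks given in full, 30 passed the test, and of 462 values of these under the alternatives, 420 passed in the same direction, 42 no longer passed and 0 turned round. Of the 42, 9 came from alternatives that kept all libraries. The 19 peaks were chosen in part for a small p, and each call counts once per alternative, so this tally leans towards calls that hold. All 10 calls against Control at the other member peaks were lost without at least 1 library. Group sizes of 2 and 3 and a median of 31.5 to 87.5 reads per member peak limit what could be called. Without a mean-variance trend the counts of member peaks called were 4 in RORgt-KO against Control, 8 in RORgt-Tbet-KO against Control and 1 in RORgt-RORa-KO against RORgt-Tbet-KO. Over all 36251 peaks that fit called 3176, 5783 and 1505 in these comparisons, beside 4463, 8189 and 2733 in the fit as reported. RORgt-Tbet-KO against RORgt-KO, with 0 calls, gave 1 with a pseudocount of 5 reads, 4 with library weights and 4 with only these groups in the fit. Calls over all peaks rose as well, from 415 to 625, 3148 and 3341 under these settings. RORgt-RORa-KO against RORgt-KO, with 0, gave 1 with voom and 1 with library weights, where 417 and 1212 of all peaks were called. RORgt-RORa-KO against RORgt-Tbet-KO, with 2, gave 7 with library weights, where calls over all peaks rose from 2733 to 6272. It gave 0 within 5 kb of the gene bodies, where neither of its peaks lies. The cause of the other shifts was not tested.

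Leaving out 1 library at a time gave 1 to 11 calls in RORgt-KO, 5 to 14 in RORgt-Tbet-KO and 11 to 18 in RORgt-RORa-KO against Control, 0 to 0 in RORgt-Tbet-KO and 0 to 0 in RORgt-RORa-KO against RORgt-KO, 1 to 4 in RORgt-RORa-KO against RORgt-Tbet-KO, and 11 to 17 by the F test. Where a group of 2 lost a library, the other was assumed to vary like the other groups. Of 13 same-numbered pairs of libraries, 1 correlated above 0.1 in its deviations from the group means, over a range of -0.12 to 0.14. In groups of 2 these deviations mirror each other, so the 13 values are not independent. They cannot settle whether the replicate numbers pair the samples. With the replicate block, the counts were 11 in RORgt-KO, 15 in RORgt-Tbet-KO and 18 in RORgt-RORa-KO against Control, 0 in RORgt-Tbet-KO and 0 in RORgt-RORa-KO against RORgt-KO, 4 in RORgt-RORa-KO against RORgt-Tbet-KO, and 19 by the F test. Over all 36251 peaks this block gave 5659, 10130, 11985, 666, 605, 3490 and 13136 calls in the same order.

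Some differences that had not passed the test changed sign, most of them when 1 library was left out. At the Il1r2 start peak 40085602 the values without 1 library ran from -0.12 to 0.28 in RORgt-Tbet-KO and from -0.10 to 0.28 in RORgt-RORa-KO. At the Il1r2 peak 40161052 they ran from -0.93 to 0.077 in RORgt-KO. At the Il1r1 start peak 40224888 they ran from -0.19 to 0.019 in RORgt-KO, with 0.08 under the replicate block, and from -0.42 to 0.14 in RORgt-RORa-KO. At the Il18r1 start peak 40465513 voom gave 0.014 in RORgt-RORa-KO. At the Il18rap start peak 40514859 they ran from -0.044 to 0.30 in RORgt-Tbet-KO and from -0.067 to 0.098 in RORgt-RORa-KO.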

Other observations

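The genes that flank the cluster gave a mixed picture. Of 33 peaks at Map4k4, Slc9a4, Slc9a2, Mfsd9, Creg2, Rfx8 and Rnf149, 2 were higher and 2 lower in RORgt-KO, 5 higher and 3 lower in RORgt-Tbet-KO, and 7 higher and 6 lower in RORgt-RORa-KO, while Tmem182 had no peak. That is 12.1%, 24.2% and 39.4%, beside 12.3%, 22.6% and 31.2% of all peaks. On the side of Il18rap, Slc9a4 and Slc9a2, which encode sodium-proton exchangers, had 0 higher peaks, and 3 of 3 and 3 of 4 of their peaks were lower in RORgt-RORa-KO. On the side of Il1r2, the kinase gene Map4k4 had 15 peaks, of which 2 were higher and 0 lower in RORgt-KO, 4 higher and 2 lower in RORgt-Tbet-KO, and 5 higher and 0 lower in RORgt-RORa-KO.

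The peaks most like the leading receptor peaks were found by Pearson r of log2 values over the 10 libraries, among peaks of named genes on other chromosomes, where the points share group and depth. For the Il18rap peak at 40524012 they were at C9orf72 (r = 0.991) and Rmnd1 (0.986). For the Il1rl1 peak at 40386232 they were at Pik3r5 (0.990) and Nefl (0.975). For the Il18r1 peak at 40501566 they were at Pepd (0.982) and Cdkn2aipnl (0.978), and for the Il1rl2 peak at 40358684 at Sec14l2 (0.979) and Itga9 (0.975). For the Il1r1 peak at 40315272 they were at Ptp4a2 (0.979) and Pecam1 (0.977), and for the Il1r2 peak at 40161052 at Hdhd5 (0.978) and Hs2st1 (0.942). The 2 highest r of that search are given for each peak, as a description.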
